A study of Coturnix japonica with 24 samples.

Results

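The signals examined here were those of 5 genes of reproductive and prolactin control: the peptide precursor genes GNRH1, NPVF and VIP, and the receptor genes VIPR1 and PRLR. They were chosen by name, as every probe set whose only symbol in the platform's annotation was 1 of these. Each gene had 1 probe set, so the 5 genes were 5 of 38439 probe sets, and all 5 passed the filter on low values that kept 28829 for testing. The tissue was the mediobasal hypothalamus of male Japanese quail, reared on short days (6 h light, 18 h dark) for 4 weeks up to the age of 8 weeks. For a further 2 weeks the birds either stayed on that schedule or lived on long days (20 h light, 4 h dark). At each of 6 zeitgeber times (ZT2, ZT6, ZT10, ZT14, ZT18 and ZT22, taken as hours from lights on, which the labels do not spell out) each photoperiod gave 6 birds, pooled by 3 onto 2 Affymetrix arrays. This made 12 groups of 2 arrays and 12 arrays for each photoperiod.

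GNRH1 encodes gonadotropin-releasing hormone, which drives the pituitary gonadotropins and whose cell bodies in birds lie mostly rostral to the mediobasal hypothalamus, with endings in the median eminence. NPVF encodes gonadotropin-inhibitory hormone, a peptide first described in quail and made by neurons of the paraventricular nucleus. VIP encodes vasoactive intestinal peptide, the main prolactin-releasing factor of birds, VIPR1 a receptor for it, and PRLR the receptor for prolactin. In quail, lengthening days activate the reproductive axis, and prolactin secretion in birds is likewise raised by long days.

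The array was designed on chicken, so a quail transcript that differs from its probes can give a low signal, and levels are not compared between genes. Arrays numbered 1 were brighter than those numbered 2 in 12 of 12 groups, by 1.23 to 1.85 times in median, and are also given apart below as array sets 1 and 2. Values are intensities with every array scaled to a common median. Background on an array was the 95th percentile of 746 probe sets without a chicken name, and after centring it lay between 15.4 and 21.3. A change is the long-day minus the short-day mean of log2(intensity + 1.497), with the moderated standard error (SE) of limma. Precision is limited by the number of arrays.

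Of the 5 genes, NPVF, VIP and PRLR were above background on 24 of 24 arrays, as were 26.5% of the probe sets tested. GNRH1 was above it on 9 of 24 arrays (5 of 12 in short days and 4 of 12 in long days, or 41.7% and 33.3%), and VIPR1 on 3 of 24 (1 of 12 and 2 of 12, or 8.33% and 16.7%). On any 1 array 38.1% to 49.6% of all probe sets were above background. That is a share of probe sets on an array and not of arrays for a probe set, so the shares of GNRH1 and VIPR1 are not ranked against it. The short-day and long-day counts of GNRH1 were 7 and 5 with a lower background percentile, and 0 and 1 with a higher one. They are not read as a difference between photoperiods. The photoperiod test was passed by 0 of the 5 genes and by 0.132% of all probe sets tested (limma, adjusted p under 0.05 by Benjamini-Hochberg). At an unadjusted p under 0.05 there was 1 of 5, PRLR, against 5.42% of all probe sets tested.

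**Figure D1:**
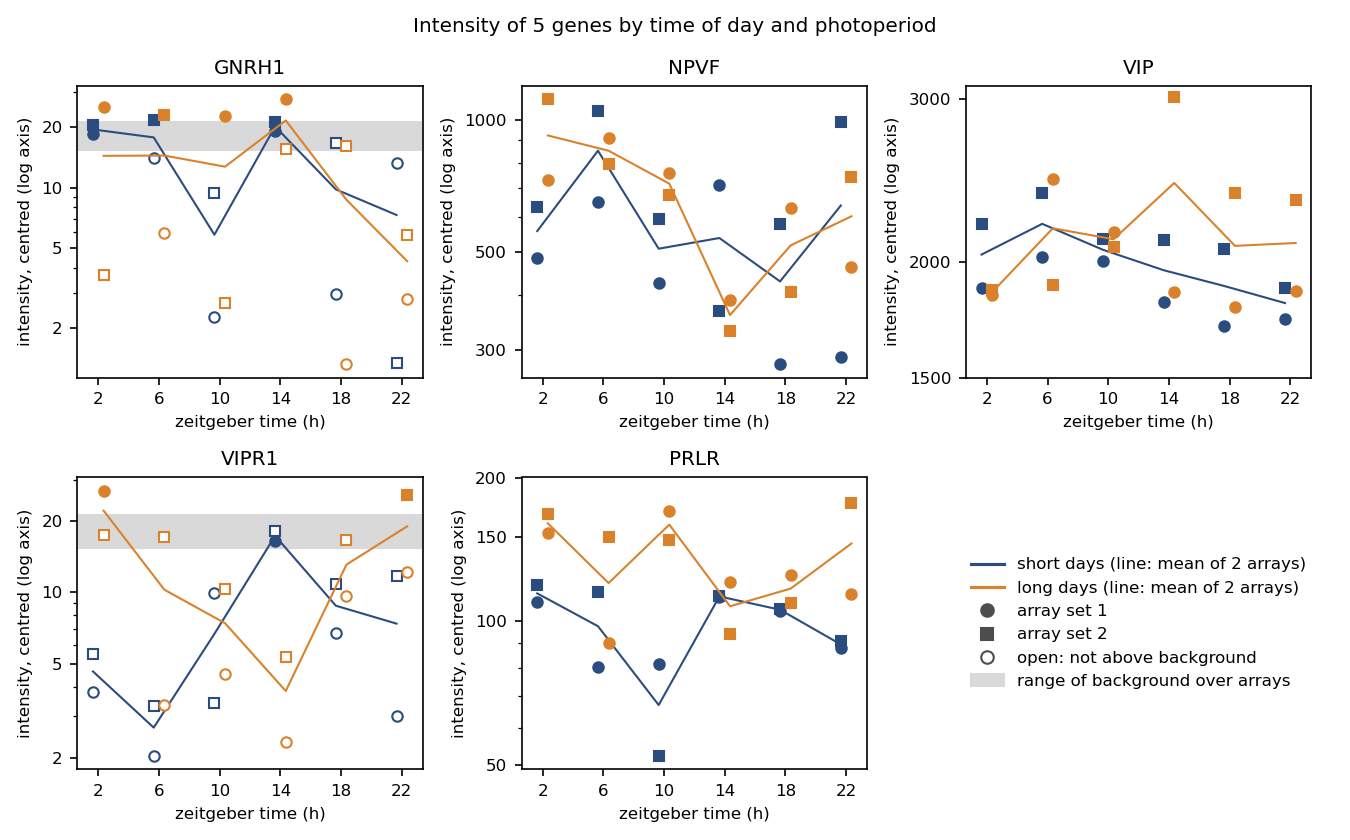
Centred intensity (log axis) of the 5 genes against zeitgeber time in hours, with each array as a point (circles for array set 1, squares for array set 2), lines through the means of 2 arrays, open symbols for arrays not above background, and a grey band for the range of background over arrays in the panels of GNRH1 and VIPR1. PRLR in long days ran from 90.2 to 177 and in short days from 52.2 to 119, while most points of VIPR1 are open.

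PRLR was the gene of the 5 with the clearest difference between photoperiods, though it did not pass the test. Its intensity had a lowest value of 52.2, a median of 105.8 and a highest of 119 over the 12 short-day arrays. Over the 12 long-day arrays these were 90.2, 136.5 and 177. The means were 97.9 ± 19.7 and 135 ± 30.0 (s.d., n = 12 each), so the upper part of the long-day range lay above every short-day array and the lower part overlapped it. The change was 0.46 ± 0.14 on the log2 scale, a 1.37-fold difference with a 95% interval of 1.12 to 1.69 for this gene taken alone (limma, adjusted p = 0.526). Of the probe sets tested, 0.805% had an unadjusted p as small as that of PRLR. Within array sets 1 and 2 the change of PRLR was 0.40 and 0.51.

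Taken time by time, PRLR stood at 152.9 and 168 in long days and 109.7 and 119 in short days at ZT2, with no overlap. At ZT6 the arrays read 90.2 and 150.4 in long days against 80.5 and 115 in short days, and overlapped. At ZT10 they read 170.5 and 148 against 81.5 and 52.2, the widest gap of the 6 times. At ZT14 PRLR was at 121 and 94.1 in long days, on either side of the 112 and 113 in short days. The ZT18 arrays gave 125 and 109.5 against 105.2 and 106, a small gap without overlap. At ZT22 the values were 114 and 177 against 87.9 and 91.2. The long-day mean of PRLR was the higher at 5 of 6 times, as it was at 5 or 6 of 6 times for 11.5% of the probe sets tested. NPVF and VIPR1 also had the higher long-day mean at 5 of 6 times. The 2 long-day arrays lay above both short-day arrays at 4 of 6 times. Among all probe sets tested the same held for 14.8% at ZT2, 16.5% at ZT10, 16.1% at ZT18 and 19.5% at ZT22.

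The difference of PRLR at ZT10 was 1.27 ± 0.35 (95% interval 0.54 to 1.99, limma, adjusted p = 0.942), and those at the other times ran from -0.08 at ZT14 to 0.66 at ZT22, without passing. The interaction test, which asks whether the difference varies over times, gave an adjusted p = 1 for PRLR, so the gap at ZT10 was not shown to differ from those at other times. Ordered by group mean, PRLR was highest in long days at ZT2 (160.4) and ZT10 (159) and lowest in short days at ZT10 (66.9). Of the 6 highest group means of PRLR, 5 were from long days, and the same held for VIP. The counts were 4 for NPVF, 4 for VIPR1 and 3 for GNRH1. The share over all probe sets was not counted. Of the 11 pairs of neighbours in the order of PRLR 10 overlapped, and the exception was the lowest pair, short days at ZT22 and ZT10. Neighbours in such an order are the closest groups by construction, so their overlap is not read as a result.

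**Figure D2:**
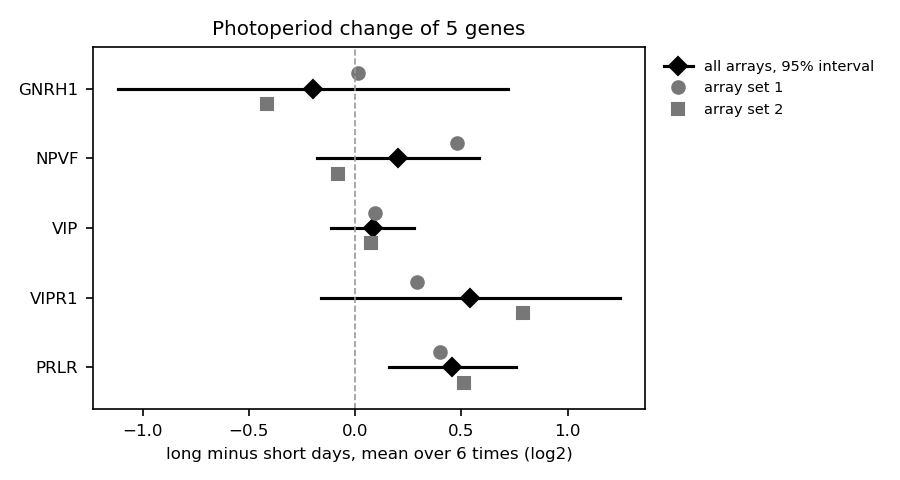
Photoperiod change of the 5 genes (long minus short days, mean over 6 times, log2) over all arrays with its 95% interval (diamonds and lines), and within array set 1 (circles) and array set 2 (squares). The interval of PRLR, 0.16 to 0.75, lies above 0 before adjustment for the number of probe sets, and those of the other 4 genes include 0.

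VIP had the most even signal of the 5 genes and no detectable difference between photoperiods. In short days the lowest, median and highest values were 1704, 2014 and 2372, and in long days 1787, 1983 and 3008. The long-day mean of 2125 ± 364 and the short-day mean of 1990 ± 199 (s.d., n = 12 each) lay well within each other's spread. The change of VIP was 0.08 ± 0.09, or 1.06-fold with a 95% interval of 0.93 to 1.21 (limma, adjusted p = 0.989), and it was 0.09 and 0.07 within array sets 1 and 2. The s.d. between the 2 arrays of a group, pooled over groups, was 0.22 on the log2 scale for VIP, smaller than for all but 2.6% of the probe sets tested, whose median was 0.75. Only 26.5% of those probe sets were above background on 24 of 24 arrays, as VIP was.

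The highest VIP value, 3008, came from the set 2 array of long-day ZT14, whose partner read 1857, and without it the change was 0.03. Before centring this set 2 array read 2432, below the 2791 of the set 1 array of long-day ZT6. At ZT2 the long-day arrays of VIP, 1843 and 1866, both lay just below the short-day arrays, 1873 and 2199, as happened for 17.3% of probe sets tested at that time. The change there was -0.13 ± 0.23. At the other times the 2 photoperiods overlapped, with differences of -0.02 at ZT6 to 0.28 at ZT14. The group means of VIP ran from 2433 in long days at ZT14 down to 1805 in short days at ZT22. After centring, set 2 arrays were the higher of the pair in 10 of 12 groups for VIP, by 0.18 on average on the log2 scale. In the deposited values set 1 was the higher in all groups but long-day ZT14, for example 2735 against 1833 in short days at ZT6. The set difference of VIP thus depends on the scaling of the arrays.

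NPVF gave a strong signal, and the 2 arrays of some groups lay far apart. The s.d. between arrays of a group was 0.55 on the log2 scale for NPVF, under the median of 0.75 over the probe sets tested. It was above that of 30.8% of them. Only 26.5% of these probe sets were above background on 24 of 24 arrays, as NPVF was. VIP and PRLR, which also were, had a smaller s.d. of 0.22 and 0.275. The lowest, median and highest values of NPVF were 278, 587 and 1050 in short days and 331, 702 and 1114 in long days, so the ranges nearly coincided. The means were 588 ± 246 and 662 ± 232 (s.d., n = 12 each) and the change 0.20 ± 0.18, with a 95% interval of -0.18 to 0.58 (limma, adjusted p = 0.985). The direction rested on array set 1, where the change of NPVF was 0.48, and in array set 2 it was -0.08. Without the set 1 array of short-day ZT22 the change of NPVF was 0.05, and without its set 2 array 0.35. The largest gap between 2 arrays of a group was in short days at ZT22, where set 1 read 289.7 and set 2 read 988. In short days at ZT14 the order was the reverse, with 711 and 367.

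By time of day, NPVF in long days was at 729 and 1114 at ZT2, 909 and 793 at ZT6, and 758 and 674 at ZT10. It then read 389 and 331 at ZT14, 630.4 and 407 at ZT18, and 464 and 743 at ZT22. The 2 arrays of ZT14 were thus the lowest of the 12 long-day arrays, and those of ZT2, ZT6 and ZT10 lay among the upper values. A 24 h cosine fitted to the long-day arrays had a log2 amplitude of 0.60 ± 0.17 for NPVF with a peak at 3.98 h (limma, adjusted p = 1). In short days NPVF was at 485 and 633 at ZT2, 652 and 1050 at ZT6, 425 and 594 at ZT10, 278 and 580.5 at ZT18, with ZT14 and ZT22 given above. The cosine there peaked at 5.35 h with a log2 amplitude of 0.36 ± 0.17 (adjusted p = 1), and the difference of the 2 cosines of NPVF did not pass (adjusted p = 0.999).

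Both long-day arrays of NPVF exceeded both short-day arrays at ZT2 and at ZT10, as happened for 14.8% and 16.5% of probe sets tested. The differences there were 0.701 ± 0.452 and 0.508 ± 0.452 on the log2 scale. At ZT14 the difference was -0.508 ± 0.452. None passed, nor did the interaction for NPVF (adjusted p = 1). The group means of NPVF ran from 922 in long days at ZT2 to 360.1 in long days at ZT14, so both ends of the order were long-day groups.

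GNRH1 was read near background, and its values mainly show on which arrays the probe set crossed that limit. Over short days the lowest, median and highest values were 1.34, 15.4 and 21.7, and over long days 1.32, 10.8 and 27.6. In short days both arrays were above background at ZT2 (18.6 and 20.4) and ZT14 (19.2 and 21.2) and 1 array at ZT6 (21.7, with the other at 14.01), and none at ZT10, ZT18 or ZT22. In long days 1 of 2 arrays was above it at ZT2 (25.2), ZT6 (23.0), ZT10 (22.8) and ZT14 (27.6), and none at ZT18 or ZT22. The partner arrays of those 4 long-day groups read, in the same order, 3.68, 5.98, 2.66 and 15.7. The ZT18 and ZT22 groups of GNRH1 thus held no array above background in either photoperiod.

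The change of GNRH1 was -0.20 ± 0.44 (limma, adjusted p = 0.991). Its 95% interval of -1.12 to 0.72, for this gene taken alone, takes in changes in both directions. It was 0.02 in array set 1 and -0.41 in array set 2, and it turned to 0.01 without the set 2 array of long-day ZT10 and to 0.02 without the set 1 array of long-day ZT18. Raising values under background to background gave 0.10, an alternative chosen after the data were seen. The s.d. between arrays of a group was 1.22 on the log2 scale for GNRH1, above that of 93.9% of the probe sets tested. At none of the 6 times were the photoperiods of GNRH1 apart.

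VIPR1, the receptor of VIP, was read mostly under background. Its lowest, median and highest values were 2.04, 6.09 and 18.1 in short days and 2.34, 11.3 and 26.9 in long days. The arrays above background were the set 1 array of short-day ZT14 (16.6, where the other array's 18.1 lay under its own background) and, in long days, the set 1 array of ZT2 (26.9) and the set 2 array of ZT22 (25.9). The change of VIPR1 was 0.54 ± 0.34, or 1.46-fold with a 95% interval of 0.89 to 2.37 (limma, adjusted p = 0.964), and 0.29 and 0.79 within array sets 1 and 2. It was 0.08 once readings below background were set to background.

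The readings of VIPR1 differed between photoperiods in both directions over the day, without passing a test. At ZT2 the long-day arrays read 26.9 and 17.4 and the short-day arrays 3.79 and 5.47. At ZT14 the order was turned, with 2.34 and 5.32 in long days and 16.6 and 18.1 in short days. At ZT6 (3.34 and 17.2 against 2.04 and 3.33) and ZT22 (12.2 and 25.9 against 3.004 and 11.8) the long-day arrays were again the higher, and at ZT10 and ZT18 the photoperiods overlapped. Groups apart with higher long-day values were found for 14.8% of probe sets tested at ZT2, 13.6% at ZT6 and 19.5% at ZT22. In the direction of lower long-day values they were found for 15.3% at ZT14. The fitted differences of VIPR1 were 1.93 ± 0.83 at ZT2 (limma, adjusted p = 0.999) and -1.88 ± 0.83 at ZT14 (adjusted p = 0.913). They rest on readings under background, since at ZT2 no short-day array and at ZT14 no long-day array exceeded it. Of the brighter pair only 1 array exceeded background at ZT2, ZT14 and ZT22 alike, so the fitted differences of VIPR1 are not read as sizes of change. The interaction did not pass for VIPR1 (adjusted p = 1). The 24 h cosine had a log2 amplitude of 0.84 ± 0.32 with a peak at 15.8 h in short days (adjusted p = 1) and of 0.98 ± 0.32 with a peak at 23.9 h in long days (adjusted p = 1). The difference of the 2 cosines did not pass either (adjusted p = 0.999).

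**Figure D3:**
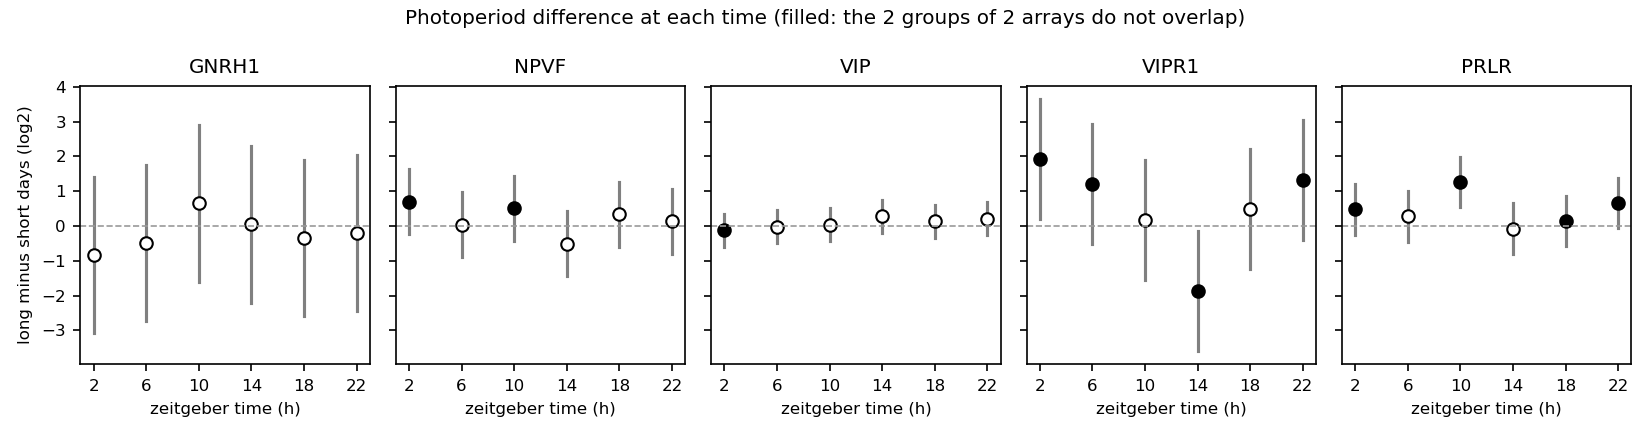
Difference between long and short days (log2) at each zeitgeber time in hours for the 5 genes, with 95% intervals from the shared fit, and filled points where the 2 long-day arrays and the 2 short-day arrays do not overlap. PRLR at ZT10 (1.27) and VIPR1 at ZT2 (1.93) and ZT14 (-1.88) have intervals that leave out 0 before adjustment, and none passed after it.

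Over the 30 comparisons of 5 genes at 6 times, 0 passed limma's test after adjustment. An unadjusted p below 0.05 was reached by 3, which were 2 of VIPR1, from readings mostly under background, and 1 of PRLR. The share of all probe sets at an unadjusted p below 0.05 was not counted for single times, so the 3 are not read as more than that share. The shares that follow are after adjustment and are no measure for these 3. After adjustment 0.00694% of all probe sets tested passed at ZT2. The share at ZT6 and ZT10 was 0.0139% each, ZT14 had 0.0277%, ZT18 0.0173% and ZT22 0.0104%. No gene of the 5 passed the test of time of day in short days (0.0208% of probe sets did), and 0 of 5 had an unadjusted p under 0.05 (3.7% of probe sets). In long days 0 of 5 passed (0% of probe sets), and 0 of 5 had an unadjusted p under 0.05 (3.42%), with 0.0655 for NPVF as the smallest. The interaction was passed by 0 of 5 (0.00694%), also unadjusted (3.31%). The cosine was passed by 0 of 5 in short days (0.0208%) and 0 of 5 in long days (0%), with 1 and 2 at an unadjusted p under 0.05 (4.62% and 4.03% of probe sets). The difference of the cosines was passed by 0 of 5 (0.00694%), with 1 unadjusted (4.18%). The unadjusted ones were VIPR1 in short days, NPVF and VIPR1 in long days, and VIPR1 for the difference. VIPR1 was above background on 3 of 24 arrays, so its cosines are not read as a rhythm.

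Whether the 5 genes varied together from array to array was asked over 10 pairs of genes. None of the 10 passed after adjustment over the pairs (100000 permutations, 2-sided). The permutations over 24 arrays took no account of group, photoperiod or array set. Each r over 24 arrays thus mixes differences between these with the spread between arrays of a group. The closest relation was that of VIPR1 and PRLR, with Pearson's r = 0.53 over 24 arrays (permutation p = 0.00762, adjusted p = 0.0762) and Spearman's rho = 0.49 (permutation p = 0.0165, adjusted p = 0.165). Without the 2 arrays farthest from the median of VIPR1 it was 0.53, within array sets 1 and 2 it was 0.39 and 0.66 (n = 12 each), and within short and long days 0.37 and 0.53. VIPR1 was above background on 3 of these 24 arrays.

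NPVF and VIP showed no relation over all arrays (r = 0.07, rho = 0.21, permutation p = 0.764 and 0.327, adjusted p = 0.764 and 0.712), and r = -0.20 without the 2 arrays farthest from the median of NPVF. Within the array sets the sign differed, with r = 0.66 in set 1 (n = 12, permutation p = 0.0155, adjusted p = 0.155) and r = -0.60 in set 2 (n = 12, permutation p = 0.0341, adjusted p = 0.171). Neither passed over its 10 pairs. In the remaining pairs r lay between -0.18 for GNRH1 with VIPR1 and 0.33 for NPVF with PRLR, all with an adjusted permutation p of 0.579 or more.

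**Figure D4:**
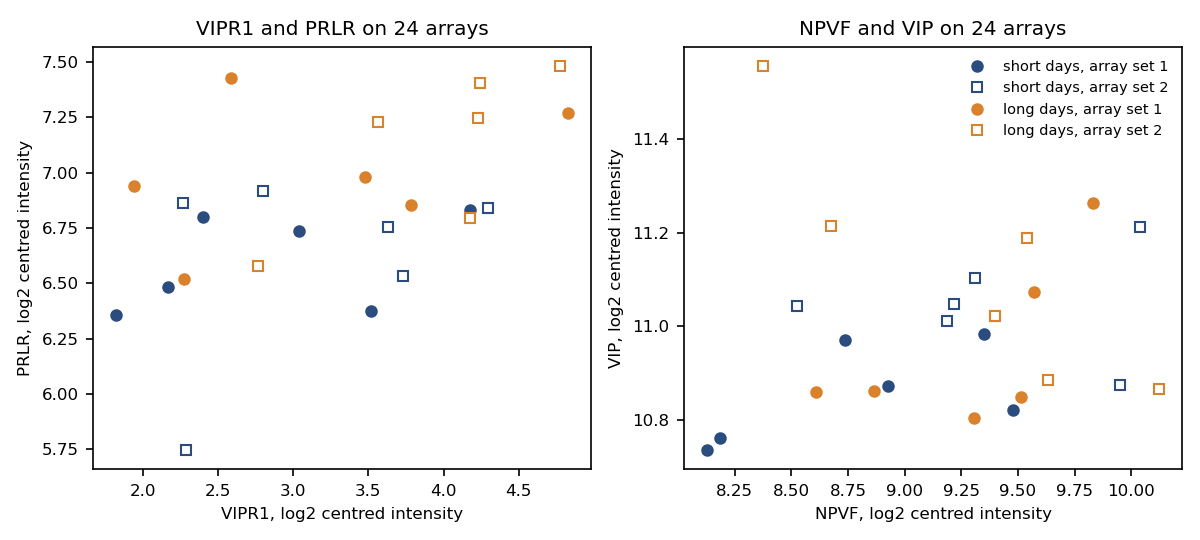
Log2 centred intensity of PRLR against VIPR1 (left) and of VIP against NPVF (right), with each of 24 arrays as a point, filled circles for array set 1 and open squares for array set 2. PRLR and VIPR1 had r = 0.53 over all arrays, and NPVF and VIP had r = 0.66 in set 1 and -0.60 in set 2.

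The genes whose 12 group means followed a member most closely were sought among 8762 other genes above background on at least 12 of 24 arrays, for the 3 members that met this limit. The correlations are descriptions over 12 points that share arrays. For PRLR they were GABRA2, a GABA-A receptor subunit (r = 0.89), VPS54, of vesicle tethering at the Golgi (0.88), and STK4, a kinase of the Hippo pathway (0.87). For NPVF they were the transcription factor gene UBP1 (0.89), TXNL4A, a spliceosome component (0.86), and GEMIN8, of the SMN complex (0.84). For VIP they were KNTC1, a kinetochore protein (0.91), VWC2, a secreted antagonist of bone morphogenetic proteins (0.85), and MRPL14, of the mitochondrial ribosome (0.84). The top 2.5% of the 8762 genes already began at r = 0.64 for PRLR, 0.60 for NPVF and 0.62 for VIP.

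Other genes of the same pathways were taken from 3 lists. In GnRH and gonadotropin control 13 of 22 genes were on the array under that symbol and tested. Of these 1 rose in long days (0.0763% of all probe sets did) and 0 fell (0.0555%), and 7 of 13 changes were positive. The gene that rose was CGA, the alpha subunit shared by the gonadotropins and thyrotropin, from 567 ± 450 to 1528 ± 489 (s.d., n = 12 each), by 1.85 ± 0.13 (limma, adjusted p = 5.61e-09). CGA was also the gene of the 3 lists to pass tests over the day: the interaction (adjusted p = 0.00132), time of day in short days (adjusted p = 7.44e-06) and the short-day cosine (adjusted p = 5.97e-07), so its difference between photoperiods varied with time. Within array set 1 or 2 alone CGA did not pass the photoperiod test. That fit took photoperiod and time as additive terms, so a difference that varies with time adds to its residual. Whether this is why CGA did not pass was not tested. With each array left out in turn the change of CGA ran from 1.78 to 1.92. FSHB, the beta subunit of follicle-stimulating hormone, was above background on 1 of 24 arrays. The next by p were LHCGR, the receptor of luteinizing hormone, at 0.71 ± 0.24 (adjusted p = 0.634), OPRK1, the kappa opioid receptor, at 0.87 ± 0.31 (adjusted p = 0.692), ESR2, an oestrogen receptor, at -0.44 ± 0.22 (adjusted p = 0.917), and NPFFR2, a neuropeptide FF receptor, at -0.44 ± 0.33 (adjusted p = 0.98). NPFFR2 was above background on only 7 of 24 arrays. NPFFR1, the receptor of the peptide encoded by NPVF, was at -0.29 ± 0.40 and above background on 13 of 24 arrays.

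In the VIP and PACAP family 8 of 12 genes were tested, and none passed. ADCYAP1, the precursor of the related peptide PACAP, was at 1122 ± 103 in short and 1224 ± 137 in long days (s.d., n = 12 each), a change of 0.12 ± 0.09 (adjusted p = 0.976). VIPR2, the other VIP receptor, was above background on 16 of 24 arrays, at 20.6 ± 13.0 and 24.6 ± 11.2, with a change of 0.39 ± 0.39 (adjusted p = 0.989). GLP1R, the receptor of glucagon-like peptide 1, was at -1.05 ± 0.41 (adjusted p = 0.762) with 7 of 24 arrays above background, and GHRH, which releases growth hormone, at -0.49 ± 0.25 (adjusted p = 0.928).

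In prolactin control and receptor signalling 19 of 24 genes were tested and none passed. GHR, the growth hormone receptor and a relative of PRLR, had the smallest p of the list and the direction of PRLR, at 88.0 ± 27.2 in short and 144 ± 30.1 in long days, a change of 0.73 ± 0.18 (limma, adjusted p = 0.165). It passed after quantile normalization (adjusted p = 0.0234). DDC, of dopamine and serotonin synthesis, was at -0.66 ± 0.17 (adjusted p = 0.247) and DRD3, a dopamine receptor, at -0.75 ± 0.29 (adjusted p = 0.749). POU1F1, the pituitary factor for prolactin and growth hormone cells, was at -0.64 ± 0.36 with 0 of 24 arrays above background. STAT5A, which carries the signal of PRLR to the nucleus, was at 0.13 ± 0.12, and JAK2, its kinase, at -0.04 ± 0.31. Among inhibitors induced by the pathway, SOCS2 was at 0.43 ± 0.27, CISH at 0.31 ± 0.28, SOCS1 at -0.38 ± 0.201 and SOCS3 at -0.48 ± 0.30. PRL itself was above background on 16 of 24 arrays, at 17.8 ± 8.45 and 19.1 ± 6.55. The median changes of the 3 lists were 0.12, 0.03 and -0.04, beside -0.01 over all probe sets tested.

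**Figure D5:**
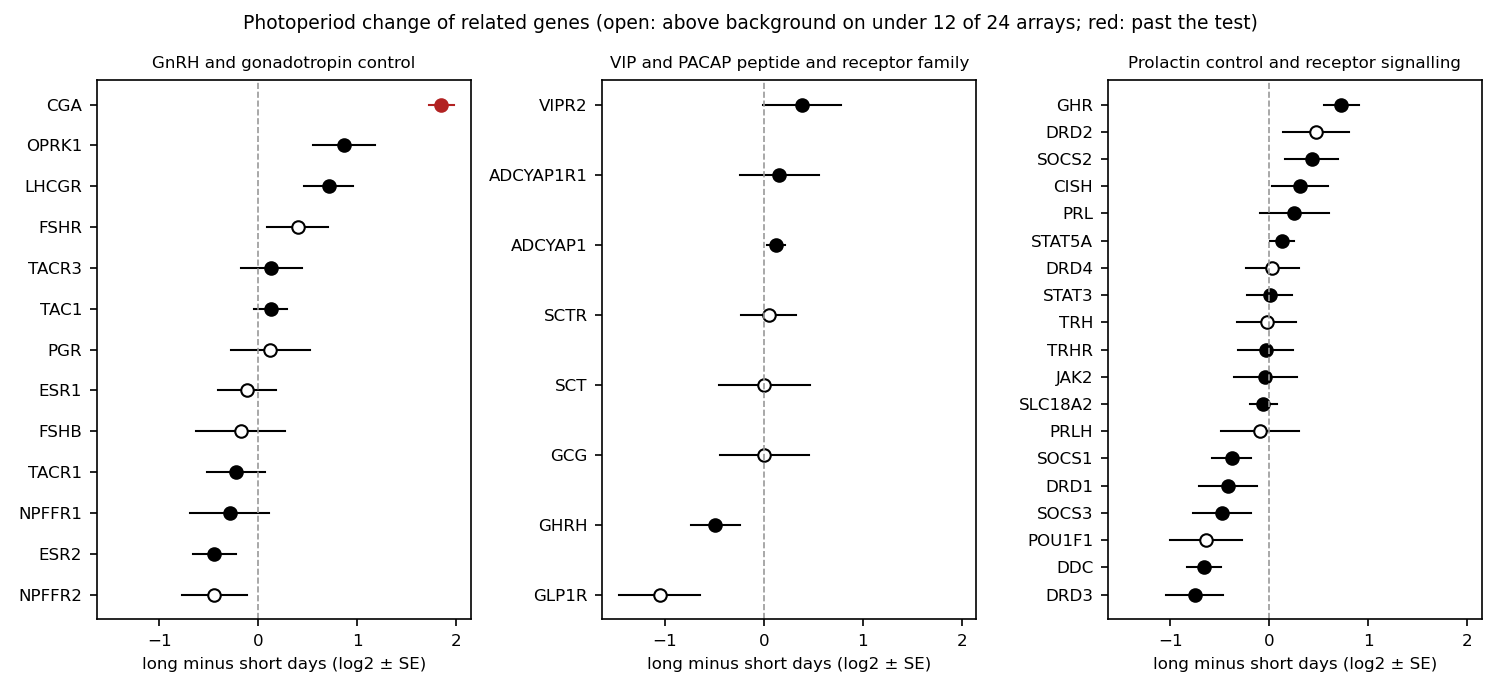
Photoperiod change (long minus short days, log2 ± SE) of the tested genes of 3 lists, with open points for genes above background on under 12 of 24 arrays and red for a gene past the test. CGA, at 1.85, is the one red point, and GHR, at 0.73, is the highest of the prolactin list.

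The labelled tissue was checked with markers. All 7 mediobasal hypothalamus markers on the array (POMC, AGRP, NPY, NR5A1, GAL, TAC1 and DIO2) and all 7 neuron markers were above background on at least 12 of 24 arrays. Of the markers of neighbouring nuclei 4 of 7 were: AVP on 24 arrays, CRH on 21, OTP on 13 and LHX9 on 12. TRH and SIM1 were above background on 6 arrays each and TBR1 on 0. Whether nuclei beside the target were part of the tissue was not tested beyond these markers. Of the anterior pituitary 3 of 6 were above background on at least 12 arrays. The counts were 22 arrays for TBX19, 21 for PITX1, 16 for PRL, 5 for GH, 1 for FSHB and 0 for POU1F1. Of the choroid plexus, which is rich in PRLR in mammals, 4 of 7 reached 12 arrays. For tanycytes this held for 3 of 3 markers, for blood cells 5 of 6, for retina and pineal 3 of 6, and for leptomeninges and vessels 5 of 6. On any 1 array 38.1% to 49.6% of all probe sets were above background, and the share of all probe sets reaching 12 arrays was not counted. A list with about that share therefore does not show that its tissue was present. The markers that passed the photoperiod test were DIO2, which rose by 1.97 ± 0.14 (limma, adjusted p = 9.74e-09), POMC at -1.04 ± 0.14 (adjusted p = 0.000265) and the tanycyte marker FABP7 at -0.95 ± 0.14 (adjusted p = 0.000992). TTR, the main product of the choroid plexus, did not pass, at 32.8 ± 13.9 in short days and 28.1 ± 13.0 in long days. The part of any of these cells in the signal of PRLR was not tested. In such bulk tissue a lower number of cells and less RNA per cell cannot be told apart.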

How the data were processed

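Transcripts were measured on 24 Affymetrix chicken arrays. The deposited intensity values are on a linear scale, and the submitters' processing notes name GCOS 1.2, with settings and scaling not given in the sources used here. Of 38535 probe sets 96 controls were left out. Each array was centred on its median of log2(intensity + 1.497), the pseudocount being 10% of the median intensity of 14.97, which understates changes of dim genes. Probe sets in the lowest 25% of means were left out. limma 3.58.1 in R 4.3.3 fitted a mean for each of 12 groups, and a second model 24 h cosines, with a variance trend, to all arrays. Benjamini-Hochberg adjustment ran over all 28829 tested probe sets, with 0.05 as the threshold. The fits were tested on simulated data. The 2 arrays of a group are biological replicates per the labels. The p-values cover their spread, which takes in any difference between array sets, since the main fit held no term for these. Symbols came from the platform annotation, and 4 of the 5 occur in the Coturnix japonica 2.1 gene table. The exception is GNRH1, whose quail counterpart was thus not found by symbol. The probe sets of VIP and PRLR have names ending in _a_at, which marks probes shared by transcripts of a gene. Array set numbers were not taken as pairs in the main fit. Deviations from the group means correlated weakly but positively in all 66 pairs of groups (0.01 to 0.103, median 0.04), with 3 over 0.1, and 0 over 0.1 among the 6 same-time pairs. The array sets thus shared a small difference. A fit with a term for it, the replicate block, is among the alternatives, where 76 probe sets passed the photoperiod test instead of 38. Every list gene was read from its probe set with the highest mean. Named genes were the 5 members, the 3 genes most like each member above background on at least 12 arrays, and from each list those past the test plus up to 4 with the smallest p. FSHB, NPFFR1, POU1F1, STAT5A, JAK2, SOCS2, SOCS3, CISH and PRL are named beyond this rule, for their roles, after their values were seen. Members and lists were chosen with earlier results of these data known. Figures were drawn with matplotlib 3.10.9 in Python 3.11.15. Alternatives are given in the closing section.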

Additional observations from a re-analysis of the deposited data

How the results depend on the processing

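None of the 5 genes passed a test under the alternatives run: 2 other pseudocounts, 2 other filters, array weights, quantile normalization, no centring, no variance trend, the replicate block, each array left out, and either array set alone (not run for the tests of single times, of time of day and of the interaction, where 12 groups of 1 array leave no residual degrees of freedom). The change of PRLR ran from 0.39 to 0.52 over 36 alternatives with a lowest adjusted p of 0.288, that of VIP from 0.03 to 0.14, and that of VIPR1 from 0.08 to 0.79 over 35, since a filter on the lowest 50% drops VIPR1 and GNRH1. With each array left out in turn GNRH1 ran from -0.42 to 0.0218 and NPVF from 0.05 to 0.35. GNRH1 was also positive in array set 1 alone (0.0155) and with values raised to background (0.10), and NPVF was negative in array set 2 alone (-0.0799). The replicate block raised the probe sets past the photoperiod test from 38 to 76. Quantile normalization gave 74, no centring 12 and array set 2 alone 19. In the prolactin list 1 gene passed after quantile normalization (GHR, adjusted p = 0.0234) and 1 with the replicate block (GHR, adjusted p = 0.0446). In the gonadotropin list 0 passed in either array set alone, and 1 to 2 with each array left out, the second being OPRK1 without the set 1 array of short-day ZT18 (adjusted p = 0.00631). With background at the 99th percentile GNRH1 was above it on 0 short-day and 1 long-day arrays and VIPR1 on 0 short-day arrays, and at the 90th percentile VIPR1 was on 2 and 5. Pairs of genes that turned sign within an array set were GNRH1 with NPVF (0.22 in set 1), GNRH1 with PRLR (-0.11 in set 2) and NPVF with VIP (-0.60 in set 2). The causes were not tested. Signal near background limits GNRH1 and VIPR1. The photoperiod fits of 1 array set alone took photoperiod and time as additive terms. A difference that varies with time, like that of CGA, adds to their residual.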
